A study of Mus musculus with 6 samples.

Results

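The chaperone genes of the heat shock and DnaJ families are described here in the left ventricle of angiotensin-infused mice that lack cytoglobin. They were taken by symbol from the deposited count table. The symbols are those of the small heat shock proteins, of the Hsp10, Hsp60, Hsp70, Hsp90 and Hsp110 families and of the J-domain families DNAJA, DNAJB and DNAJC, with the factors Hsf1 and Hsf2 and the cold-inducible RNA-binding genes Cirbp and Rbm3. This gave 66 of 13384 genes, after 1 pseudogene row was left out. Bulk RNA-seq of polyadenylated RNA covered 3 adult mice with global loss of the cytoglobin gene, Cygb(-/-), and 3 wild-type littermates, Cygb(+/+), with a library for each mouse. Every mouse, wild-type ones included, received angiotensin II, a hormone that raises blood pressure, at 1.5 mg/kg/day for 2 weeks from a pump under the skin. No heart without the infusion was analysed here, so these values do not show what angiotensin II did to a chaperone gene. Because the deletion is in all cells, an effect cannot be assigned to one cell type.

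Chaperones bind unfolded or partly folded proteins and keep them from aggregating. Hsp70 works in cycles of ATP hydrolysis that J-domain proteins start and exchange factors such as Hsp110 end, while Hsp90 takes over many clients for their last folding steps. Small heat shock proteins hold unfolded proteins without ATP and are abundant in heart muscle, where they sit on sarcomeres and the cytoskeleton. Heat and protein damage activate the transcription factor HSF1, which binds heat shock elements of inducible chaperone genes. Unfolded protein in the endoplasmic reticulum (ER) acts instead through ATF6, XBP1 and ATF4, in part at ER stress elements. Cirbp and Rbm3 are induced by mild cooling.

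Promoter windows, from 250 bases before to 50 after an annotated start, were found in RefSeq (GRCm38.p6) for 52 of the 66 genes. Both strands were searched for GAANNTTC, a pair of head-to-head heat shock units, for the same letters continued after 2 bases by another GAA, which always contain the pair, and for the ER stress element, which is CCAAT and CCACG set 9 bases apart. The pair was found in 13 of the 52 genes (25%), against 6.93% of the 10307 genes of the table with a window. The longer form was found in 4 genes, Dnajb6, Hspd1, Hspe1 and Hsph1 (7.69%, against 0.602% of the table). Windows of Hspd1 (55087883 to 55088182) and Hspe1 (55087898 to 55088197) cover nearly the same bases of chromosome 1. The same stretch of DNA is thus counted for both genes, in the longer form and in the pair. The ER stress element was found in 3 genes, Dnajc3, Hsp90b1 and Hspa5 (5.77%, against 0.155% of the table). All 3 encode ER proteins, and of the 10 ER chaperone genes with a window 0 held the heat shock pair, against 4 of 5 small heat shock genes. A match is a run of letters, not a measured binding site. The windows below were picked to show the pair in a small heat shock gene and in the heat-inducible Hsp70 gene, the longer form in the Hsp60 gene, and the ER stress element in the main ER chaperone genes. Capitals mark the matches, and in Hspd1 both matches overlap.
Hspb1, chr5:135887669-135887968, strand +: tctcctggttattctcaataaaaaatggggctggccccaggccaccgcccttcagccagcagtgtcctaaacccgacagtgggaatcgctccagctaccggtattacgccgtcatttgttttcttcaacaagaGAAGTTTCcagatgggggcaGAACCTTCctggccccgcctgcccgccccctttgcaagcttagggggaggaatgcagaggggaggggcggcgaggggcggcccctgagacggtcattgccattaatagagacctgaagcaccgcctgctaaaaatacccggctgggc
Hspa1a, chr17:34972107-34972406, strand -: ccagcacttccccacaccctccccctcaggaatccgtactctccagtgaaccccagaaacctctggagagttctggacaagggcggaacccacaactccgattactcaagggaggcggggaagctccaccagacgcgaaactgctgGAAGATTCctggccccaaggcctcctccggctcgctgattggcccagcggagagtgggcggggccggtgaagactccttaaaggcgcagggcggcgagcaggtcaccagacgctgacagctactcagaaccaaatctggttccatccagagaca
Hspd1, chr1:55087883-55088182, strand -: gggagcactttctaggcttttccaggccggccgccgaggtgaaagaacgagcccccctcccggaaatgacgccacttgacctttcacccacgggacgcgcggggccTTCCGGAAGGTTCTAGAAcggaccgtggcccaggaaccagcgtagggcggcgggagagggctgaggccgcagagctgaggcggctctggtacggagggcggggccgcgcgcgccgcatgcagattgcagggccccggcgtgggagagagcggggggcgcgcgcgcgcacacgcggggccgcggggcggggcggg
Hspa5, chr2:34771840-34772139, strand +: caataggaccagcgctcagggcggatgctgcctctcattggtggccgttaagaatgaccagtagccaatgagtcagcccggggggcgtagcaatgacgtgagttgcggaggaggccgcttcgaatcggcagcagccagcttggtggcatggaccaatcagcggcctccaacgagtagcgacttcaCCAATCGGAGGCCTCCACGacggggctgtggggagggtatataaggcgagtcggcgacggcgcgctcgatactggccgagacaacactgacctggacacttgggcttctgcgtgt
Hsp90b1, chr10:86705395-86705694, strand -: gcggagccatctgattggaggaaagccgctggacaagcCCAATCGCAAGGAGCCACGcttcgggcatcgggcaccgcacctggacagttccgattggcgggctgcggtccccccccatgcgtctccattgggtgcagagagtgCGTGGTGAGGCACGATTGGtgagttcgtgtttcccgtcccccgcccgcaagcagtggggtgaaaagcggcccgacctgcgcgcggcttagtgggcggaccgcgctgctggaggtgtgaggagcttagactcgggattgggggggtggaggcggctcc

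Hearts are numbered 1, 2 and 3 as the labels number the replicates, and values by heart follow that order. Levels are CPM, counts scaled to a common library size by TMM, and all 66 genes passed the filter on low counts. A log2 fold change is the fitted knockout value minus the wild-type one, tested with edgeR's quasi-likelihood test (two-sided) and adjusted by Benjamini-Hochberg over 13384 genes. Libraries held 23190864 to 30354857 counts, and a chaperone gene had 83 to 54942 counts in a library. Cygb itself was not analysed here, and the genotypes rest on the labels. For each heart, the genes were counted in which its level lay nearer the other genotype's mean than the mean of its own group's other hearts. The count was 17, 38 and 14 of 66 chaperone genes for the knockout hearts and 20, 47 and 20 for the wild-type hearts. Over all genes the share was 36.6, 44.5 and 28.9% for the knockout hearts and 38.7, 60.4 and 32.8% for the wild-type hearts. By this measure wild-type heart 2 and then knockout heart 2 lay closest to the other genotype. Wild-type heart 3 was the lowest of the 6 hearts in 25 of 66 chaperone genes, against 19.2% of all genes. Heart muscle markers were abundant in every library, with Myh6, Tnnt2, Actc1, Tnni3 and Mb summing to 52781 to 61222 CPM in knockout hearts and 54934 to 71769 CPM in wild-type hearts. Of their log2 fold changes 0 of 5 were above 0, with a median of -0.14. Atrial markers (Myl7, Myl4, Sln and Nppa) summed to 492 to 566 CPM in knockout hearts and 699 to 3035 CPM in wild-type hearts, with 0 of 4 above 0 and a median of -2.92. The part of both marker sets in the results was not tested. In bulk tissue, fewer cells of a type and less RNA per cell cannot be told apart.

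No chaperone gene passed the test between the genotypes. At an adjusted p of 0.05, edgeR called 0 of 66 genes higher and 0 lower in the knockout, where 0.112% of all genes were called (0.0897% higher and 0.0224% lower). At an adjusted p of 0.1 there was 1 gene, Dnajc13, against 2.38% of all genes. Unadjusted, 11 of 66 (16.7%) were under 0.05, against 19.2% of all genes. Of these, 4 had a positive fold change, where the share over all genes was 10.2%, and 7 a negative one, against 8.94%. Knockout and wild-type values did not overlap for 13 of 66 genes (19.7%), against 22.3% of all genes. In 7 of them the knockout was the higher group, where the share over all genes was 11.8%, and in 6 the lower one, against 10.5%. The 7 are Dnaja2, Dnajc9, Dnajc13, Dnajc24, Dnajc28, Hsp90b1 and Hspa14, and the 6 are Dnajc4, Dnajc11, Dnajc30, Hsf1, Hspa1l and Hspb1. By all of these counts the chaperones lay near or below the background.

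DESeq2 called 1 chaperone gene, Dnajc13, higher in the knockout, where it called 4.71% of all genes (2.68% higher and 2.03% lower). limma-voom called 0 chaperone genes. Its share over all genes is not given here, so that count cannot be set against a background. The fitted values were small: their median was 0.052, in a range of -0.51 for Hspb1 to 0.61 for Dnajc13, and 41 of 66 (62.1%) were above 0. Over all genes the median was -0.0045 and 49.4% were above 0. The 95% intervals of the single genes reached from 0.546-fold to 1.92-fold, so changes beyond that range lay outside every one of them.

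**Figure D1:**
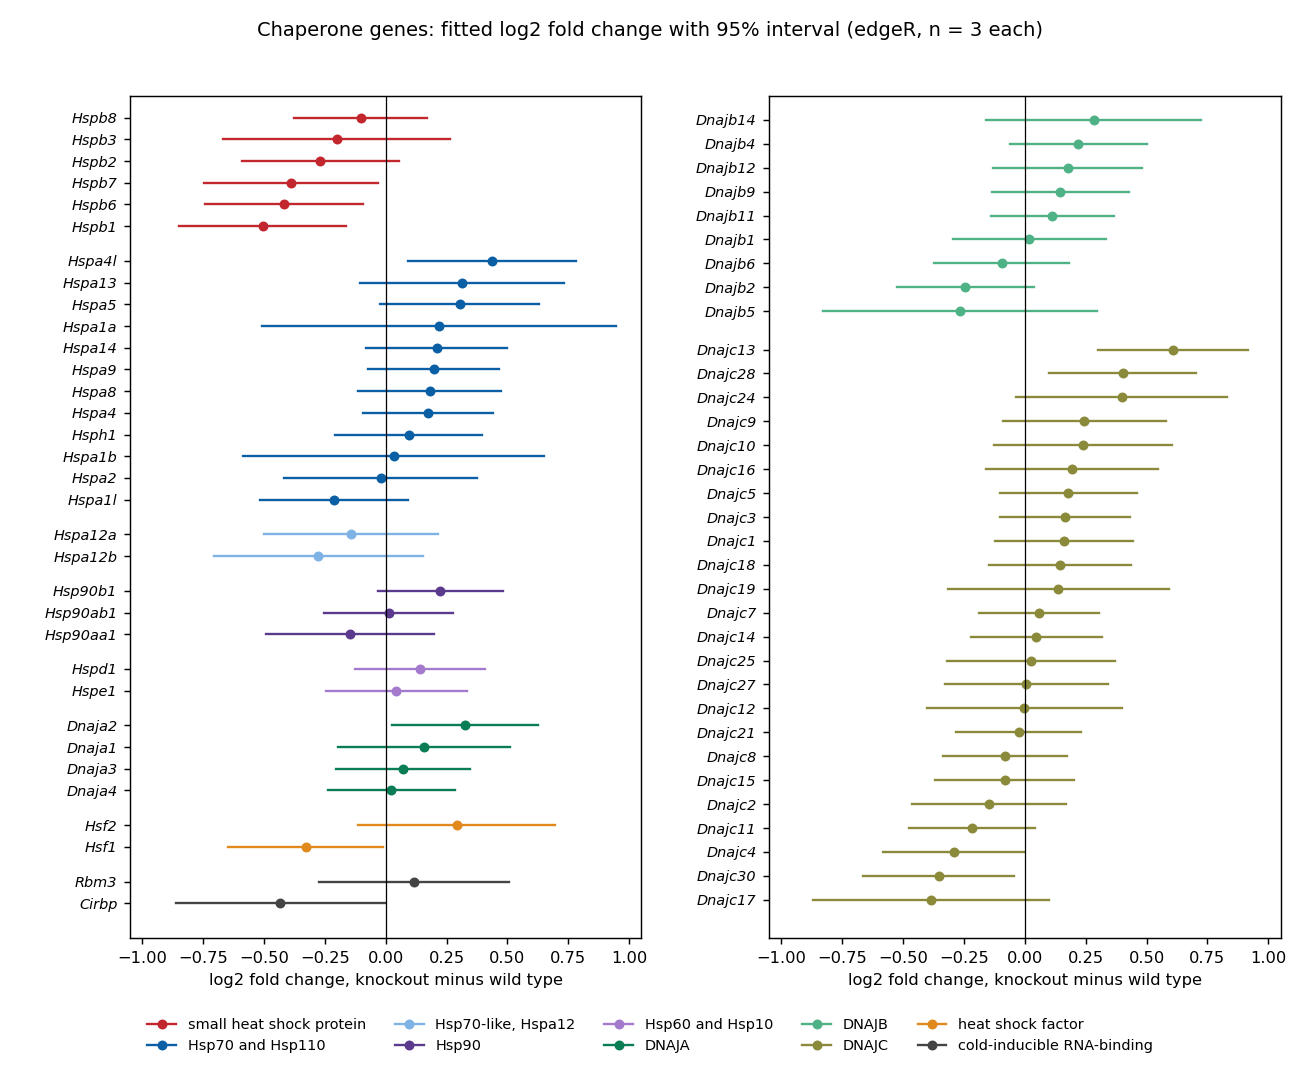
Fitted log2 fold change, knockout minus wild type, of the 66 chaperone genes (points) with 95% intervals (lines), grouped and coloured by class. All 6 small heat shock genes lie below 0 and all 4 DNAJA genes above it, and none passed the test over all genes.

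A trend with GC content and wild-type heart 2 both touched these values, and the main classes below are given with both. Over the 3153 genes of lowest GC content (31.0 to 45%) the median log2 fold change was 0.19, and over the 3153 of highest (54.6 to 72.8%) it was -0.22. The chaperone genes in these ranges, 19 and 9 in number, had medians of 0.16 and -0.28. With offsets that remove the dependence on GC content and transcript length in each library, edgeR called 0 chaperone genes, against 0.357% of genes in that fit, and 6 (9.09%) were under an unadjusted 0.05, against 14.1%. The median was then -0.0094, with 32 of 66 above 0 (48.5%, against 49.9% of genes).

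Leaving out wild-type heart 2 raised the number of calls, over all genes from 0.112% to 13.6%. That heart was singled out from these same values as nearest the knockout, so calls of this fit are no separate support. Leaving out any other heart gave 0 chaperone calls. With wild-type heart 2 left out, 11 chaperone genes passed (16.7% of 66), against 13.6% of all genes. The 5 higher ones were Dnaja2, Dnajc10, Dnajc13, Hspa4l and Hspa13 (Dnajc10 and Hspa13 are named after their values were seen), where 7.25% of all genes were called higher. The 6 lower ones were Cirbp, Dnajc30, Hsf1, Hspa12b, Hspb1 and Hspb6, where 6.39% were called lower. Groups without overlap were found for 36 of 66 genes (54.5%), against 48.5% of all genes. The knockout was higher in 22 of them (all genes 23.6%) and lower in 14 (all genes 24.9%).

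**Figure D2:**
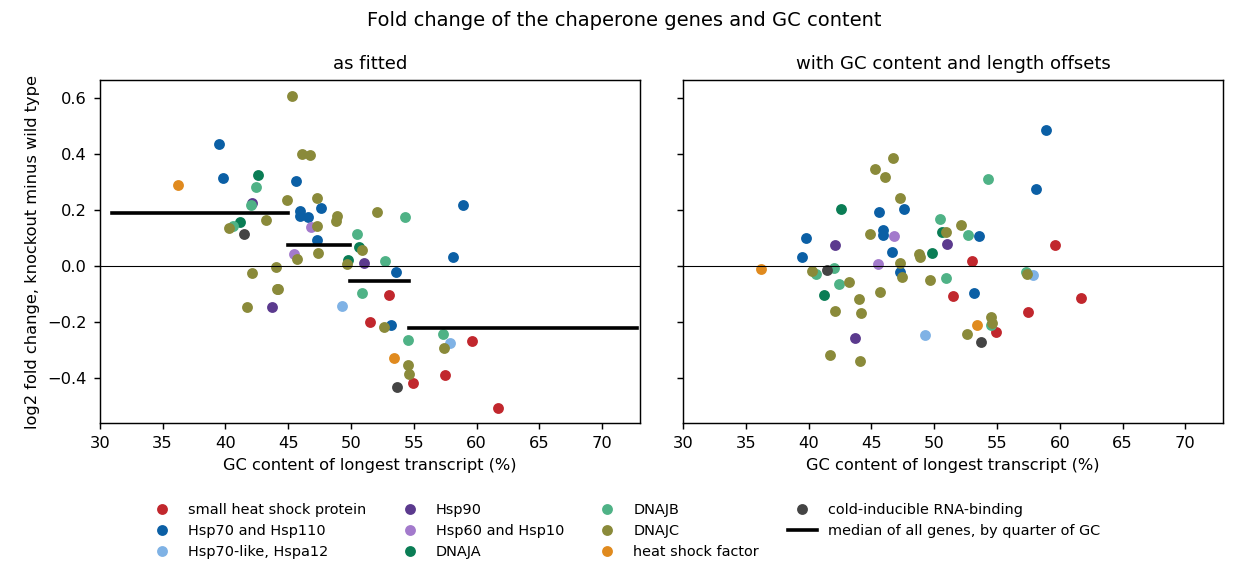
Log2 fold change, knockout minus wild type, of the chaperone genes (points, coloured by class) against the GC content in percent of the longest transcript, as fitted (left) and with offsets for GC content and length (right). Black bars are medians of all genes in 4 ranges of GC content and step from 0.19 at the left to -0.22 at the right, and the small heat shock genes lie below 0 as fitted while 2 of 6 lie above it with the offsets.

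The small heat shock proteins had the lowest median of the classes, with all 6 measured genes (Hspb1, Hspb2, Hspb3, Hspb6, Hspb7 and Hspb8) below 0. Their median log2 fold change was -0.33, against -0.0045 over all genes, and none passed the test. The median deviation of the class from the mean of the 6 libraries was -0.21, 0.002 and -0.28 in the knockout hearts and 0.30, 0.075 and 0.27 in the wild-type hearts on the log2 scale. Knockout values were thus below wild-type ones, with both hearts numbered 2 in the middle. These genes are rich in GC (median 56.2%). With the offsets the class median was -0.11, with 2 genes above 0, and without wild-type heart 2 it was -0.42.

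Hspb1 encodes Hsp27, which binds damaged proteins and actin filaments, and lies on chromosome 5 from 135887919 to 135889563 in GRCm38. It was at 69.3, 92.2 and 63.0 CPM in the knockout hearts and 121, 93.4 and 104 CPM in the wild-type hearts. The groups did not overlap, but the hearts numbered 2 nearly met. The mean was 74.8 ± 15.4 CPM in knockout hearts against 106 ± 13.9 CPM in wild-type hearts (SD, n = 3 each), with a fitted log2 difference of -0.51, SE 0.16, edgeR adjusted p = 0.129. With the offsets the fold change was -0.11 (edgeR adjusted p = 0.727), and without wild-type heart 2 it was -0.58 (edgeR adjusted p = 0.0342). Its promoter window above holds the heat shock pair 2 times.

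Hspb6 encodes Hsp20, which kinases of the cyclic nucleotide pathways phosphorylate in heart and vessel. It was at 811, 859 and 774 CPM in the knockout hearts and 1205, 849 and 1210.2 CPM in the wild-type hearts. Wild-type heart 2 lay inside the knockout range, and the other wild-type hearts were well above it. The mean was 815 ± 42.3 CPM in knockout hearts against 1088 ± 207 CPM in wild-type hearts (SD, n = 3 each), with a fitted log2 difference of -0.42, SE 0.15, edgeR adjusted p = 0.166. The fold change was -0.23 with the offsets (edgeR adjusted p = 0.369) and -0.56 without wild-type heart 2 (edgeR adjusted p = 0.00986). Hspb6 overlaps Lin37 in the annotation.

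Hspb7 encodes a small heat shock protein of heart and vessel found at the sarcomere. It was at 968, 1575 and 1274 CPM in the knockout hearts and 1667, 1530.0 and 1800.3 CPM in the wild-type hearts, and knockout heart 2 lay among the wild-type hearts (log2 fold change -0.39, SE 0.17, edgeR adjusted p = 0.228). The offsets gave -0.17. Hspb8, which acts with the co-chaperone Bag3 to clear damaged filament proteins, averaged 469 ± 44.4 CPM in knockout hearts against 504 ± 33.6 CPM in wild-type hearts (SD, n = 3 each), and its log2 fold change had a 95% interval of -0.37 to 0.17. Hspb2 (-0.27, edgeR adjusted p = 0.336) and Hspb3 (-0.20, edgeR adjusted p = 0.63), which are muscle genes, did not pass either. Hspb2 overlaps Cryab, so their reads cannot be told apart if strand was ignored. Cryab, a small heat shock gene outside the symbol rule and named after its values were seen, was at 1097, 1223 and 1060.2 CPM in the knockout hearts and 1461, 1102 and 1491 CPM in the wild-type hearts (log2 fold change -0.26, SE 0.14, edgeR adjusted p = 0.328). As in Hspb6, wild-type hearts 1 and 3 were above all knockout hearts and wild-type heart 2 was not. Smooth muscle also expresses several of these genes. Its markers Myh11, Tagln, Cnn1 and Acta2 summed to 121 to 168 CPM in knockout hearts and 170.2 to 257 CPM in wild-type hearts, with 0 of 4 above 0, and their part in the result was not tested.

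**Figure D3:**
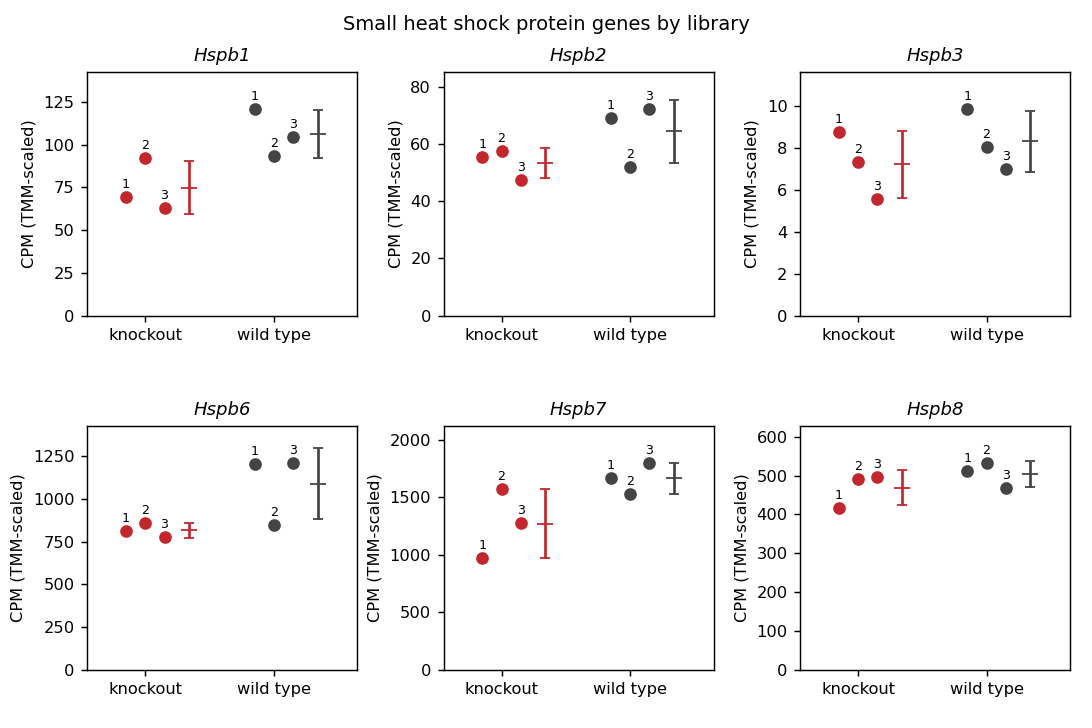
CPM of the 6 small heat shock genes in each heart (points, numbered by replicate, knockout left of wild type), with mean and SD beside each group and axes that start at 0. In Hspb6 wild-type heart 2 sits among the knockout hearts, and Hspb1 alone of the 6 has groups that do not overlap.

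The Hsp70 and Hsp110 genes leaned the other way, with 10 of 12 above 0, a median of 0.19 and none past the test. With the offsets the median was 0.11, again with 10 above 0, and without wild-type heart 2 it was 0.21 with 9 above 0. Over the fits that each left out 1 heart the median ran from 0.11 to 0.23, lowest without wild-type heart 3. By library the class median deviated by 0.15, 0.007 and 0.13 (knockout) and -0.038, 0.034 and -0.24 (wild type) on the log2 scale. Wild-type heart 2 thus lay above knockout heart 2, and wild-type heart 3 was lowest. Hspa5 and Hspa13 are in this class and also among the ER chaperones below. Hspa8, the constitutive cytosolic Hsp70, averaged 481 ± 56.9 CPM in knockout hearts against 425 ± 45.3 CPM in wild-type hearts (SD, n = 3 each; log2 fold change 0.18, SE 0.14, edgeR adjusted p = 0.483). Hspa9, the Hsp70 of mitochondria, averaged 864 ± 47.4 CPM in knockout hearts against 754 ± 72.4 CPM in wild-type hearts (SD, n = 3 each; log2 fold change 0.20, SE 0.12, edgeR adjusted p = 0.405). Hspa4l, an exchange factor of the Hsp110 type, had the smallest p of the class. It was at 64.3, 51.6 and 71.4 CPM in the knockout hearts and 43.3, 55 and 40.1 CPM in the wild-type hearts, and the groups overlapped at the hearts numbered 2 (log2 fold change 0.44, SE 0.16, edgeR adjusted p = 0.171). At 39.5% GC, it was at 0.032 with the offsets (edgeR adjusted p = 0.916) and at 0.59 without wild-type heart 2 (edgeR adjusted p = 0.0215). Hspa1l, best known from testis, was at 14.8, 15.9 and 15.3 CPM in the knockout hearts and 18.4, 18.5 and 16.2 CPM in the wild-type hearts, which did not overlap (log2 fold change -0.21, SE 0.14, edgeR adjusted p = 0.431). Hspa2, also a gene of testis, was at -0.021 with an interval of -0.42 to 0.38. Hsph1, the inducible Hsp110 gene, averaged 62.2 ± 5.10 CPM in knockout hearts against 58.3 ± 8.92 CPM in wild-type hearts (SD, n = 3 each), with an interval of -0.21 to 0.40. Of the distant relatives, Hspa12a was at -0.14 (edgeR adjusted p = 0.661). Hspa12b, an endothelial gene, was at -0.28 (edgeR adjusted p = 0.462), at -0.033 with the offsets and at -0.48 without wild-type heart 2 (edgeR adjusted p = 0.032). Endothelial markers (Pecam1, Cdh5, Kdr, Tie1 and Egfl7) summed to 812 to 1017 CPM in knockout hearts and 881 to 1322 CPM in wild-type hearts, with 1 of 5 above 0, and their part in it was not tested.

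Among the heat-inducible genes, Hspa1a and Hspa1b varied more between animals than between genotypes. They encode the stress-inducible Hsp70 as near-identical copies, so counting may split their reads and their separate values are uncertain. Hspa1a was at 4.45, 11.6 and 6.83 CPM in the knockout hearts and 8.89, 5.43 and 5.41 CPM in the wild-type hearts. Hspa1b was at 5.55, 12.2 and 8.16 CPM in the knockout hearts and 11.2, 7.52 and 6.65 CPM in the wild-type hearts. Both were highest in knockout heart 2, next in wild-type heart 1 and lowest in knockout heart 1. Their spread within groups, an SD of 0.532 for Hspa1a and 0.460 for Hspa1b on the log2 scale, was the largest of the 66 genes, whose median was 0.165. The fold change of Hspa1a, as knockout over wild type, had a 95% interval of 0.703 to 1.92, and that of Hspa1b one of 0.667 to 1.57. Without knockout heart 2 the log2 fold change turned to -0.22 for Hspa1a, from 0.22 with all hearts, and to -0.30 for Hspa1b, from 0.033. Per kb of transcript their level was low, 2.39 for Hspa1a and 3.05 for Hspa1b, against 143 CPM per kb for the constitutive Hspa8. Dnajb1, the inducible J-domain partner of Hsp70, averaged 18.8 ± 1.58 CPM in knockout hearts against 18.5 ± 1.92 CPM in wild-type hearts (SD, n = 3 each), with a 95% interval of -0.30 to 0.33 for the log2 fold change. It was highest in wild-type heart 2, and so did not follow the order of Hspa1a and Hspa1b.

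Hsf1, the gene of the main heat shock factor, was at 34.8, 34.9 and 34.1 CPM in the knockout hearts and 51.6, 35.4 and 43.3 CPM in the wild-type hearts. The knockout hearts were within 1 CPM of each other, and wild-type heart 2 was just above them (log2 fold change -0.33, SE 0.15, edgeR adjusted p = 0.25). It was at -0.21 with the offsets and at -0.45 without wild-type heart 2 (edgeR adjusted p = 0.033). Hsf2, a related factor, averaged 14.8 ± 2.72 CPM in knockout hearts against 12.1 ± 2.09 CPM in wild-type hearts (SD, n = 3 each; log2 fold change 0.29, SE 0.19, edgeR adjusted p = 0.409), and was at -0.012 with the offsets. Cirbp was at 29.4, 43.2 and 42.5 CPM in the knockout hearts and 51.7, 38.9 and 64.8 CPM in the wild-type hearts. The groups overlapped (log2 fold change -0.43, SE 0.20, edgeR adjusted p = 0.258), and without wild-type heart 2 the fold change was -0.60 (edgeR adjusted p = 0.0447). Rbm3, the other cold-inducible gene, averaged 15.7 ± 2.91 CPM in knockout hearts against 14.5 ± 2.36 CPM in wild-type hearts (SD, n = 3 each), with a log2 fold change of 0.12 and an interval of -0.27 to 0.51. Fitted values of Cirbp and Rbm3 thus had opposite signs, although the offsets put both below 0 (-0.27 for Cirbp and -0.014 for Rbm3).

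**Figure D4:**
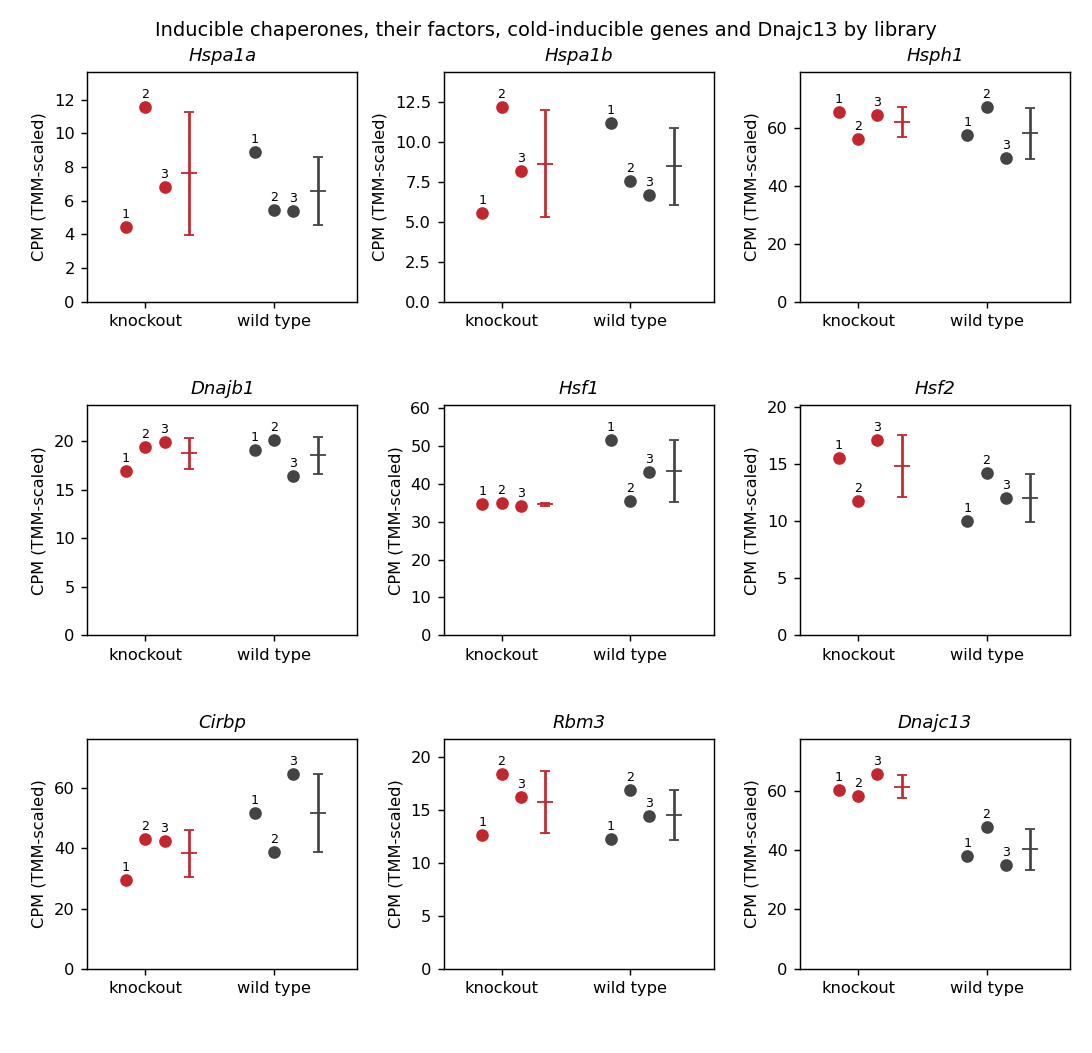
CPM of inducible chaperone genes, both heat shock factors, the cold-inducible genes and Dnajc13 in each heart (points, numbered by replicate, knockout left of wild type), with mean and SD beside each group and axes that start at 0. Hspa1a and Hspa1b are highest in knockout heart 2 and wild-type heart 1, and Hsf1 and Dnajc13 have groups that do not overlap.

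The Hsp90 genes differed in level far more than between genotypes. Hsp90ab1, the constitutive form, had the highest level of the 66 genes per length, 570.3 CPM per kb, against 18.7 CPM per kb for the inducible Hsp90aa1. Lengths are those of the longest annotated transcript, which makes the order approximate. Next came Hspb7 at 531, Hspb6 at 480.5, Hspb8 at 268 and Hspa9 at 265 CPM per kb. Hsp90ab1 was at 1498, 1401 and 1432 CPM in the knockout hearts and 1517, 1296 and 1479.8 CPM in the wild-type hearts, with overlapping groups and a 95% interval of -0.25 to 0.28 for the log2 fold change. Hsp90aa1 was at 65.2, 53.1 and 56.6 CPM in the knockout hearts and 59.0, 80.6 and 53.9 CPM in the wild-type hearts, highest in wild-type heart 2 (log2 fold change -0.15, SE 0.16, edgeR adjusted p = 0.639).

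The ER chaperones taken by symbol were all above 0. The 12 genes are the Hsp70 and Hsp90 genes Hspa5, Hspa13 and Hsp90b1 and the J-domain genes Dnajb9, Dnajb11, Dnajb12, Dnajb14, Dnajc1, Dnajc3, Dnajc10, Dnajc16 and Dnajc18. Their log2 fold changes ran from 0.11 to 0.32 with a median of 0.19, against -0.0045 over all genes, and none passed the test or was under an unadjusted 0.05. The median deviation by library was 0.18, 0.034 and 0.13 in the knockout hearts and -0.14, 0.018 and -0.18 in the wild-type hearts on the log2 scale. Hearts numbered 2 lay together between the other hearts of both genotypes. These genes are low in GC (median 45.2%, against 49.9% over all genes). Genes at 31.0 to 45% GC had a median log2 fold change of 0.19, and those at 45 to 49.9% one of 0.075. With the offsets the median of the ER chaperones was 0.087 with 9 of 12 above 0, and without wild-type heart 2 it was 0.24 with 12 above 0.

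Hspa5 encodes BiP, the ER Hsp70 that also holds the stress sensors inactive, and lies on chromosome 2 from 34772090 to 34776529 in GRCm38. It was at 608, 522 and 588 CPM in the knockout hearts and 549, 370.0 and 473 CPM in the wild-type hearts. Wild-type heart 1 lay inside the knockout range and wild-type heart 2 was the lowest of all, unlike in the group median (log2 fold change 0.30, SE 0.15, edgeR adjusted p = 0.286). Without wild-type heart 2 the fold change of Hspa5 was 0.17 (edgeR adjusted p = 0.353). Hsp90b1, the ER Hsp90, was at 414, 385 and 383 CPM in the knockout hearts and 327, 365 and 319.9 CPM in the wild-type hearts, and these did not overlap (log2 fold change 0.22, SE 0.12, edgeR adjusted p = 0.316). The offsets gave 0.19 for Hspa5 and 0.074 for Hsp90b1. Dnajb9, an XBP1 target that binds BiP, averaged 45.6 ± 4.90 CPM in knockout hearts against 41.2 ± 2.23 CPM in wild-type hearts (SD, n = 3 each; edgeR adjusted p = 0.558). Dnajc3, an inhibitor of eIF2alpha kinases, averaged 63.9 ± 4.84 CPM in knockout hearts against 57.0 ± 4.0 CPM in wild-type hearts (SD, n = 3 each; edgeR adjusted p = 0.484). Both were below 0 with the offsets, at -0.027 for Dnajb9 and -0.058 for Dnajc3. Of the genes whose windows hold the ER stress element, Hspa5, Hsp90b1 and Dnajc3, none passed.

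Other ER stress genes, a list of sensors, their targets and folding enzymes without the genes above, had a median near 0. Of 38 measured, 14 were above 0 and 24 below, with a median of -0.057, and none passed. The median was -0.023 with the offsets and ran from -0.11 to -0.0092 over the left-out hearts. Without wild-type heart 2, 19 were above 0. In that fit edgeR called 1 of 38 higher, against 7.25% of all genes, and 1 lower, against 6.39%. Ddit3, which encodes the stress-induced factor CHOP, was at 15.1, 18.5 and 17.1 CPM in the knockout hearts and 23.6, 21.3 and 26.1 CPM in the wild-type hearts. The groups did not overlap (log2 fold change -0.49, SE 0.15, edgeR adjusted p = 0.118), and the fold change was -0.52 with the offsets and -0.55 without wild-type heart 2 (edgeR adjusted p = 0.0251). Canx, the lectin chaperone calnexin, was at 0.33 (edgeR adjusted p = 0.165), and Ero1b, an oxidase that forms disulfides, at 0.65 (edgeR adjusted p = 0.167). Hyou1, an ER relative of Hsp110 that the symbol rule missed, is named after its values were seen. It was at -0.24 (edgeR adjusted p = 0.563), unlike the ER chaperones taken by symbol.

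**Figure D5:**
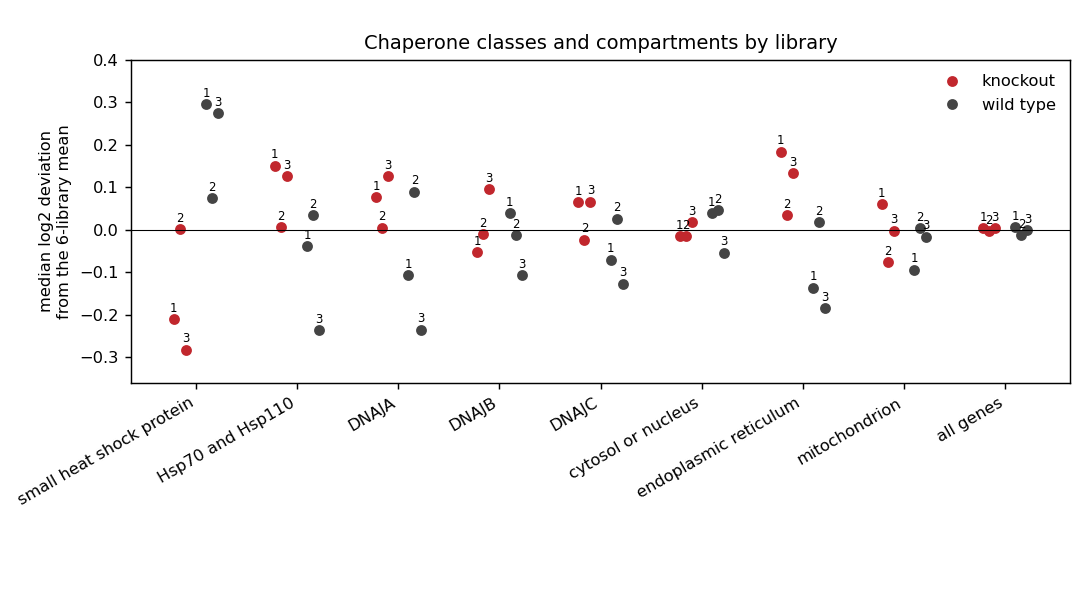
Median log2 deviation from the mean of the 6 libraries over the genes of each class or compartment (points, numbered by replicate, knockout left of wild type), with all genes at the right. Among small heat shock genes the knockout hearts are at 0.002 or lower and the wild-type hearts at 0.075 or higher, and among ER genes the knockout hearts are at 0.034 or higher and the wild-type hearts at 0.018 or lower.

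Mitochondrial chaperones showed no common direction, with 6 of 10 above 0, a median of 0.057 and none past the test. The median was -0.0037 with the offsets and 0.065 without wild-type heart 2, and ran from 0.011 to 0.095 over the left-out hearts, lowest without knockout heart 1. Hspd1, the Hsp60 chaperonin, averaged 249 ± 27.6 CPM in knockout hearts against 226 ± 8.89 CPM in wild-type hearts (SD, n = 3 each), and the 95% interval of its log2 fold change was -0.13 to 0.41. Its lid Hspe1, whose gene overlaps Hspd1 head to head, averaged 58.5 ± 5.45 CPM in knockout hearts against 56.8 ± 6.68 CPM in wild-type hearts (SD, n = 3 each), with an interval of -0.25 to 0.33. Dnajc28 was at 49.2, 41.9 and 56.0 CPM in the knockout hearts and 40.3, 36.4 and 34.6 CPM in the wild-type hearts, without overlap (log2 fold change 0.40, SE 0.14, edgeR adjusted p = 0.159). Dnajc30, a protein of the inner membrane, was at 22.7, 25.8 and 24.0 CPM in the knockout hearts and 31.7, 26.4 and 34.5 CPM in the wild-type hearts, also without overlap but below 0 (log2 fold change -0.35, SE 0.14, edgeR adjusted p = 0.207). The offsets gave 0.32 for Dnajc28 and -0.18 for Dnajc30, and without wild-type heart 2 Dnajc30 was at -0.45 (edgeR adjusted p = 0.0379). Dnajc30 overlaps Bud23. Dnajc4 was at -0.29 (edgeR adjusted p = 0.258) and at -0.028 with the offsets. Among 22 other genes of mitochondrial import and protein quality control, 17 were below 0, with a median of -0.11 and none past the test. The median was -0.052 with the offsets and -0.18 without wild-type heart 2. In the latter fit edgeR called 1 of 22 higher, against 7.25% of all genes, and 2 lower, against 6.39%. The smallest p-values there belonged to the import gene Timm50 (-0.33, edgeR adjusted p = 0.187), the protease gene Yme1l1 (0.39, edgeR adjusted p = 0.191) and the channel gene Timm17b (-0.31, edgeR adjusted p = 0.243). Without wild-type heart 2, Timm50 was at -0.40 (edgeR adjusted p = 0.0359) and Yme1l1 at 0.57 (edgeR adjusted p = 0.0131), while the offsets gave -0.045 for Timm50 and 0.11 for Yme1l1.

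J-domain genes had medians of 0.11 (4 DNAJA genes), 0.11 (9 DNAJB genes) and 0.052 (24 DNAJC genes), which the offsets moved to 0.086, -0.020 and -0.034 in the same order. These medians moved with single hearts. That of DNAJA was 0.23 without wild-type heart 2 and 0.023 without wild-type heart 3. That of DNAJC was 0.11 without knockout heart 2, 0.087 without wild-type heart 2, 0.085 without wild-type heart 1, 0.033 without knockout heart 1 and 0.035 without wild-type heart 3. That of DNAJB ran from 0.087 to 0.12. Log2 fold changes of the DNAJC genes ran from -0.39 to 0.61, with 15 of 24 above 0, and those of the DNAJB genes from -0.26 to 0.28, with 6 of 9 above 0. Dnajc13, which encodes the endosomal protein RME-8, had the smallest p of the 66 genes. It lies on chromosome 9 from 104151597 to 104263608 in GRCm38 and has a long transcript of 8012 bases. It was at 60.2, 58.4 and 65.8 CPM in the knockout hearts and 37.9, 48.0 and 35.0 CPM in the wild-type hearts, without overlap, and wild-type heart 2 was again nearest the knockout. The mean was 61.5 ± 3.84 CPM in knockout hearts against 40.3 ± 6.85 CPM in wild-type hearts (SD, n = 3 each), with a fitted log2 difference of 0.61, SE 0.14, edgeR adjusted p = 0.0781. Over 16 alternative fits its adjusted p ran from 0.00492 to 0.364 and its log2 fold change from 0.35 to 0.76. DESeq2 called it (adjusted p = 0.0108), as did edgeR without wild-type heart 2 (0.76, adjusted p = 0.00492), and edgeR with the offsets did not (0.35, adjusted p = 0.147).

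Dnaja2, a cytosolic partner of Hspa8, was at 353, 342 and 376 CPM in the knockout hearts and 252, 341.5 and 261 CPM in the wild-type hearts. The hearts numbered 2 were within 1 CPM of each other (log2 fold change 0.33, SE 0.14, edgeR adjusted p = 0.228), and without wild-type heart 2 the fold change was 0.48 (edgeR adjusted p = 0.0168). Dnaja1, an Hsp70 partner of the same class, was at 0.16 and at -0.10 with the offsets. Among DNAJB genes, Dnajb4 (0.22) and the ER membrane gene Dnajb14 (0.28) were above 0 and Dnajb2 (-0.24) and Dnajb5 (-0.26) below it, with edgeR adjusted p-values of 0.372, 0.464, 0.322 and 0.587 in that order. Dnajb5 was the most variable J-domain gene, at 72.9, 119.9 and 105 CPM in the knockout hearts and 158, 82.0 and 117 CPM in the wild-type hearts.

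Co-chaperones and cytosolic folding partners outside the symbol rule gave no call with all hearts. Without wild-type heart 2, edgeR called 6 of 32 co-chaperones and 2 of 7 other heat shock genes lower, where 6.39% of all genes were. The co-chaperones were Bag1, Fkbp4, Fkbp8, Hspbp1, Sgta and Stub1, and the other genes Cryab and Hsf4. Of these, Fkbp4, Hspbp1, Sgta and Stub1 are named after their values were seen. With all hearts, the offsets moved Fkbp4 from -0.35 to -0.16, Hspbp1 from -0.37 to -0.027, Sgta from -0.23 to 0.083 and Stub1 from -0.34 to 0.035. They moved Cryab from -0.26 to -0.083 and Hsf4 from -0.62 to -0.22. Of 32 measured co-chaperones of Hsp70 and Hsp90, 13 were above 0, with a median of -0.081 that was 0.0067 with the offsets. Bag1, an Hsp70 exchange factor, was at 191, 186 and 171 CPM in the knockout hearts and 233, 219 and 252 CPM in the wild-type hearts, without overlap (log2 fold change -0.36, SE 0.12, edgeR adjusted p = 0.142). It was at -0.18 with the offsets and at -0.40 without wild-type heart 2 (edgeR adjusted p = 0.0342). The immunophilin gene Fkbp8 was at -0.34 (edgeR adjusted p = 0.18) and the Hsp90 partner Chordc1 at 0.35 (edgeR adjusted p = 0.228), and the offsets turned both signs, to 0.090 for Fkbp8 and -0.029 for Chordc1. Without wild-type heart 2, Fkbp8 was at -0.40 (edgeR adjusted p = 0.0391). The 16 genes of the TRiC chaperonin, prefoldin and their partners had a median of -0.032 with 7 above 0. Smallest in p were the TRiC partner Pdcl3 (-0.30, edgeR adjusted p = 0.204) and the prefoldin genes Vbp1 (0.30, edgeR adjusted p = 0.276) and Pfdn5 (-0.26, edgeR adjusted p = 0.33). Of 7 other stress chaperones and heat shock genes, Cryab among them, 2 were above 0, with a median of -0.24 that was -0.081 with the offsets. This list was led in p by the heat shock factor gene Hsf4 (-0.62, edgeR adjusted p = 0.188, and -0.77, edgeR adjusted p = 0.0428, without wild-type heart 2), the collagen chaperone gene Serpinh1 (-0.33, edgeR adjusted p = 0.288) and the ubiquitin gene Ubb (-0.24, edgeR adjusted p = 0.292).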

How the data were processed

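RNA of 6 left ventricles was measured, 3 knockout and 3 wild-type. The authors deposited raw counts per gene in 1 table. The submitters' processing notes name mm10 and DESeq2. Which aligner, counter, gene models and strand setting were used is not given in the sources used here. No count in the table is under 12, so genes silent in a library are not in it. The labels number the left ventricles of each genotype, and each library is taken as a separate mouse. All 13384 genes were fitted in edgeR 4.0.16 (R 4.3.3) with TMM scaling, its low-count filter (which removed none), robust quasi-likelihood estimation and no covariate. SE is the log2 fold change over the root of F. The 95% intervals are for the fitted difference between the genotypes, not for the range of single mice. The fit was tested on simulated data only with changes larger than those of the chaperones and without a GC trend. That test does not show how smaller changes would be recovered. GC content and length come from the longest GENCODE M21 transcript (94.2% of genes, all 66 chaperones), with splines of 4 degrees of freedom as offsets. Library deviations use log2(CPM + 0.5). Genes named by rule are 23 fixed chaperones, any past 0.05, the 2 smallest p per class and direction, and the 3 smallest per partner list. Chaperones, classes, lists and windows were chosen with earlier results of these data known. Alternatives were DESeq2 1.42.0, limma-voom (limma 3.58.1), other scalings, filters and estimation, a replicate block, the offsets, and each mouse left out.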

Additional observations from a re-analysis of the deposited data

How the results depend on the processing

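The number of chaperone genes called stayed at 0 in each direction except as follows: 1 higher with DESeq2, 1 higher at an adjusted p of 0.1, and 0 to 5 higher and 0 to 6 lower over the fits that left out 1 mouse, with both maxima without wild-type heart 2. The labels do not say whether replicate numbers pair the mice, and these values cannot settle it. Deviations of same-numbered hearts correlated across genes at -0.132, -0.082 and -0.167, and no heart correlated best with its own number. With the replicate block 0 chaperone genes were called higher and 0 lower. The fit without the block called 0.112% of all genes. Of the 19 clock genes, the block called 5 higher and 1 lower, against 1.63% of all genes. Higher were Per3 (edgeR adjusted p = 8.27e-05), Per2 (0.00114), Ciart (0.00248), Hlf (0.00607) and Tef (0.0171), and Bmal1 (4.24e-05) was lower. These calls rest on the unsettled pairing. With the offsets added to the block, the edgeR adjusted p was 0.0233 for Per3, 0.163 for Per2 and 0.0621 for Ciart. It was 0.0721 for Hlf, 0.0329 for Tef and 0.0233 for Bmal1. GC content and length offsets, without and with the block, gave medians of -0.0094 and -0.0083 for all chaperone genes, -0.11 and -0.11 for small heat shock genes, -0.020 and -0.016 for DNAJB, -0.034 and -0.035 for DNAJC, 0.087 and 0.094 for ER, 0.0067 and 0.0048 for co-chaperones and -0.081 and -0.076 for other heat shock genes. The cytosolic median ran from -0.052 to 0.0072 over the left-out mice.

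Of 55 named genes, 19 kept their direction and side of the threshold in all 16 alternatives, and 807 of 873 pairs of gene and alternative did. Signs changed with the offsets, without and with the block, for Chordc1 (-0.029 and -0.033), Dnaja1 (-0.10 and -0.10), Dnajb14 (-0.064 and -0.065), Dnajb4 (-0.0071 and -0.0070), Dnajb9 (-0.027 and -0.016), Dnajc3 (-0.058 and -0.059), Fkbp8 (0.090 and 0.095), Hsf2 (-0.012 and -0.020), Hspa2 (0.11 and 0.10), Hspb8 (0.017 and 0.018), Hsph1 (-0.019 and -0.017) and Rbm3 (-0.014 and -0.030). Hsp90ab1 was at -0.0001 with upper quartile scaling. Over the left-out mice the log2 fold change spanned 0 in 10 genes, at -0.064 to 0.088 for Dnajb1, -0.26 to 0.054 for Hsp90aa1, -0.047 to 0.057 for Hsp90ab1, -0.26 to 0.072 for Hspa12a, -0.22 to 0.49 for Hspa1a, -0.30 to 0.29 for Hspa1b, -0.11 to 0.096 for Hspa2, -0.032 to 0.14 for Hspe1, -0.011 to 0.22 for Hsph1 and -0.013 to 0.25 for Rbm3. The cause was not tested.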

Other observations

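Clock genes are listed beside the chaperones because Cirbp, Rbm3 and heat shock genes follow the time of day in many tissues. Of 19 clock genes, 12 had positive fold changes, the median was 0.39 on the log2 scale, and none passed the edgeR test over all genes. Over the left-out hearts the median ran from 0.24 to 0.61. The fold changes went both ways, from -1.58 for Bmal1 to 1.38 for Per2. Bmal1, part of the activating clock complex, was at 12.9, 1.58 and 1.72 CPM in the knockout hearts and 34.5, 5.89 and 8.65 CPM in the wild-type hearts (edgeR adjusted p = 0.537). Knockout heart 1 and wild-type heart 1 were each far above the rest of their group. Its adjusted p was 4.24e-05 to 0.9 over 16 alternative fits. Npas2, a relative of Clock, was at -1.16 (edgeR adjusted p = 0.363) and Nfil3, a clock output repressor, at -1.06 (edgeR adjusted p = 0.532). Of the clock repressors, Per1, Per2, Per3 and Ciart were at 1.11, 1.38, 1.35 and 1.11. Their edgeR adjusted p-values were 0.474, 0.339, 0.345 and 0.419 in that order. These 7 genes are named after their values were seen. The other repressors of the list are named on the same terms. They were at -0.071 for Cry1, 0.24 for Cry2, -0.39 for Nr1d1, 0.90 for Nr1d2, -0.13 for Bhlhe40 and 0.018 for Bhlhe41. The clock repressors thus had no common direction. The clock output gene Hlf was at 23.5, 33.7 and 42.5 CPM in the knockout hearts and 14.5, 19.8 and 16.2 CPM in the wild-type hearts, without overlap (log2 fold change 0.98, SE 0.20, edgeR adjusted p = 0.0634). Its adjusted p was 0.00103 to 0.322 over 16 alternative fits. Rora was at 0.94 (edgeR adjusted p = 0.0783) and Tef at 0.73 (edgeR adjusted p = 0.225). DESeq2 called 3 of 19 clock genes, where it called 4.71% of all genes. Its adjusted p was 0.00103 for Hlf, 0.00914 for Rora and 0.0492 for Tef. Without wild-type heart 2, edgeR called 2 of 19, Hlf (1.12, adjusted p = 0.0153) and Rora (1.04, adjusted p = 0.0166), where it called 13.6% of all genes. The offsets gave 0.78 for Hlf (edgeR adjusted p = 0.113), 0.53 for Rora (edgeR adjusted p = 0.236) and 0.74 for Tef (edgeR adjusted p = 0.425). The median within-group SD was 0.689 over clock genes, against 0.165 over chaperone genes on the log2 scale. No time of tissue collection was used here.

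Other cell type markers, none of them called, gave these sums. Macrophage markers (Cd68, Adgre1, Csf1r, Mrc1 and Cd163), 5 of 5 above 0, summed to 144 to 180.3 CPM in knockout hearts and 115 to 125 CPM in wild-type hearts. Fibroblast markers (Pdgfra, Dcn, Col1a1, Tcf21 and Lum), 0 of 5 above 0, summed to 712 to 804 CPM in knockout hearts and 733 to 1344 CPM in wild-type hearts. Red cell markers summed to 224 to 298 CPM in knockout hearts and 251 to 664 CPM in wild-type hearts, and mesothelial ones to 11.3 to 16.2 CPM in knockout hearts and 17.7 to 41.5 CPM in wild-type hearts. Of the skeletal muscle markers 0 of 5 were measured. The part of these cells in the chaperone values was not tested.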
